A study of Capra hircus with 9 samples.

Results

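The 9 genes described here are brakes and drivers of the step from G1 into S phase of the cell cycle: the inhibitors CDKN1A, CDKN1B, CDKN2B and CDKN2C, the pocket protein RB1, the D cyclins CCND1, CCND2 and CCND3, and the transcription factor MYC. They were chosen by name, and all 9 were found among the 21229 genes of the table, where they hold 13 of 52739 transcripts. Expression was measured by RNA-seq in the submandibular gland of female Lubo goats aged 1 month (group A), 12 months (group B) and 24 months (group C), with 3 libraries per age, each from a different healthy goat. Husbandry did not differ between the groups, and the glands were collected after slaughter, which followed a fast and xylazine. The total expected count, an estimate of the reads that belong to each transcript, was 1.18e+07, 1.76e+07 and 1.15e+07 in 1-month replicates 1, 2 and 3, with 1.82e+07 to 2.11e+07 at 12 months and 2.20e+07 to 2.49e+07 at 24 months.

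D cyclins bind the kinases CDK4 and CDK6, and the active complexes phosphorylate RB1, which then releases E2F factors that switch on genes of DNA replication. INK4 proteins such as CDKN2B and CDKN2C bind CDK4 and CDK6 and keep them from the cyclins, whereas the CIP/KIP proteins CDKN1A and CDKN1B bind cyclin and kinase complexes, above all those of CDK2. MYC, with its partner MAX, raises transcription of genes for growth and ribosome production and is known as a driver of cell division, and the salivary gland still grows after birth.

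Levels are given as CPM, counts per 1e6, on library sizes scaled with TMM, a method that sets the bulk of genes equal between libraries. Counts are not divided by transcript length, so levels are compared between libraries and not between genes. Each pair of ages was tested over all genes with edgeR's quasi-likelihood test, and p-values were adjusted with the Benjamini-Hochberg method. A gene was past the test at an adjusted p under 0.05, and it was called where its absolute log2 fold change was also over 2. Both comparisons with group A use the same 3 libraries of 1-month-old goats.

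Before the results, the libraries were set against their label. The gene named with each list has the highest mean CPM over all 9 libraries, which need not hold at each age. The salivary acinar list (10 of 10 genes found, MUC19) summed to 39006, 122 and 25205 CPM in 1-month replicates 1, 2 and 3, and from 116846 to 215515 CPM in the 6 older libraries. The water channel AQP5, a defining acinar gene, had 225, 0.501 and 131 CPM in the same 1-month libraries and 484 to 1069 CPM in the older ones. The duct list (10 of 10 genes, SCNN1A) summed to 471, 162 and 340 CPM in group A and from 786 to 1757 CPM in the older libraries. The library labelled 1-month replicate 2 thus lacked most of the acinar RNA that the other 8 libraries held, which goes against its label of submandibular gland.

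The thymocyte list (16 of 16 genes, RAG1) summed to 4549, 16974 and 2340 CPM in 1-month replicates 1, 2 and 3, and from 20.0 to 43.7 CPM in the older libraries. The thymic epithelium list (6 of 6 genes, TBATA) summed to 277, 1129 and 105 CPM in group A and from 0.943 to 2.68 CPM in the older libraries. FOXN1, its defining gene, had 16.2, 81.4 and 5.68 CPM in group A and at most 0.105 CPM later, where 3 counts correspond to 0.150 to 0.173 CPM. All 3 libraries of group A held both kinds of marker, replicate 2 the most. Across 14813 genes, log-CPM of 1-month replicate 2 correlated with that of replicates 1 and 3 with r of 0.811 and 0.804, against 0.940 between replicates 1 and 3. Tests of the 9 genes and counts of the pathway lists against group A are therefore given with and without replicate 2, those of single transcripts with it only, and the part of thymic RNA in them was not tested. In 24-month replicate 3, 25.1% of the values above 0 were exact whole numbers, against 0.835% to 2.22% in the other 8 libraries, and whether its values were made in another way was not tested. In bulk tissue, fewer cells of a type and less RNA per cell cannot be told apart.

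**Figure D1:**
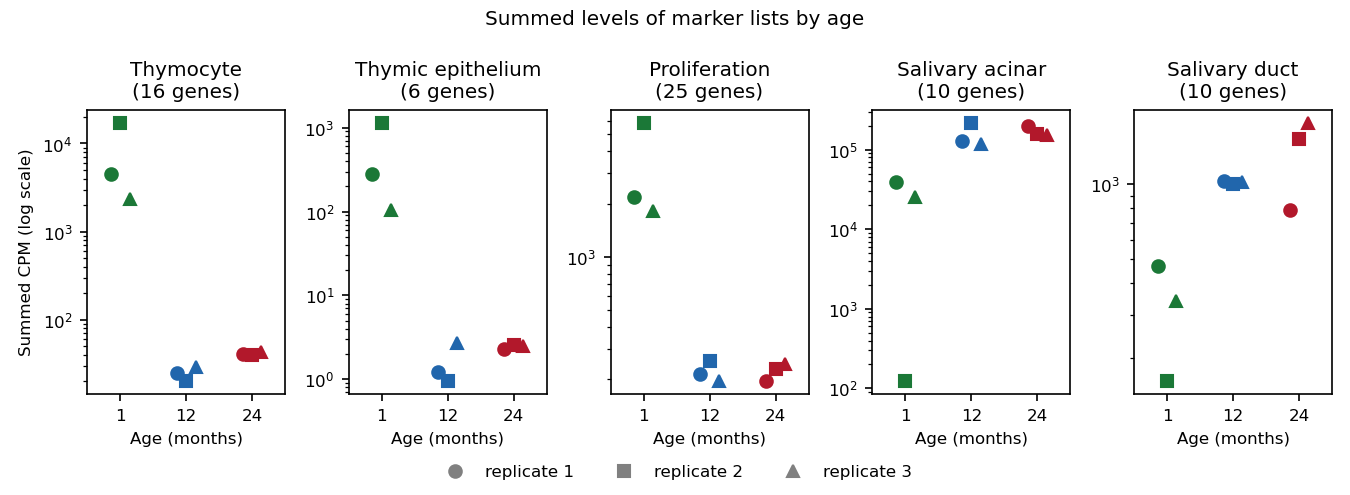
Summed CPM of 5 marker lists (vertical axis, log scale, with its own range in each panel) by age in months, with 1 point per library and a marker shape for each replicate number. The 1-month replicate 2 (green square) is highest for the thymic and proliferation lists and lowest for the acinar and duct lists, at 122 CPM for the acinar list.

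At 12 months, 2 of the 9 genes were past the test and lower than at 1 month (CDKN2C and CCND3), where 11.7% of the 14622 genes tested were past it and lower, and 1 was higher (CDKN2B), where 6.52% were. The same genes were called, against a background of 9.36% called lower and 2.12% called higher. At 24 months, 3 of the 9 were past the test and lower (CDKN2C, CCND3 and MYC), against 10.4% of 14696 genes, and 1 was higher (CDKN2B), against 7.1%. These too were called, where 9.01% of genes were called lower and 4.23% higher. All 9 genes passed the filter on low counts in each comparison. Without 1-month replicate 2, 6 of the 9 were past the test at 12 months: CDKN2C, RB1, CCND3 and MYC lower, and CDKN2B and CCND1 higher. At 24 months 4 were past it: CDKN2C, CCND3 and MYC lower, and CDKN2B higher. Of these, 3 were called at 12 months (CDKN2C and CCND3 lower, CDKN2B higher) and 2 at 24 months (CDKN2C lower, CDKN2B higher). Among all genes tested in these fits, 22.2% were past the test and lower and 21.5% higher at 12 months, with 10.2% and 2.08% called, and 14.2% and 14.1% at 24 months, with 9.66% and 4.38% called. In that setting 6532 genes of the table were past the test at 12 months and 4273 at 24 months, so the background rose as well. Leaving out any 12-month library left 0 of the 9 past the test, with 0, 67 and 110 genes of the whole table past it without 12-month replicates 1, 2 and 3. Leaving out 24-month replicates 1, 2 and 3 left 1, 1 and 0 of the 9, with 1554, 546 and 305 genes of the table past the test.

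**Figure D2:**
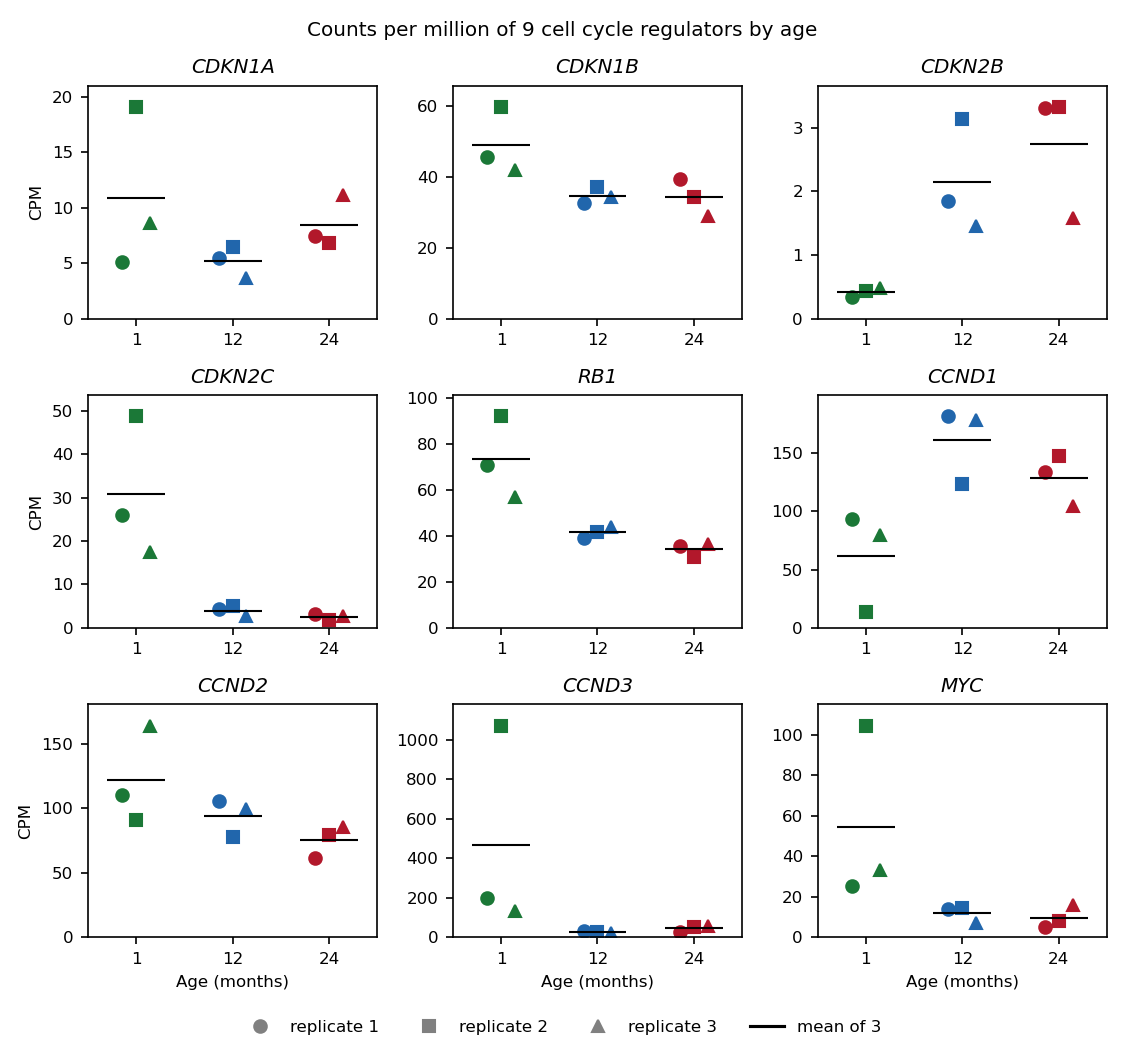
CPM of each of the 9 genes (vertical axis from 0, with its own range in each panel) by age in months, with 1 point per library, a marker shape for each replicate number and a line at the mean of 3 libraries. For CDKN1B, CDKN2C, RB1, CCND3 and MYC each 1-month library lies above each older one, and for CDKN2B and CCND1 each lies below. CDKN1A overlaps between 1 month and both older ages, and CCND2 between 1 and 12 months. The share of all genes that separate in this way was not counted.

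CDKN1A encodes p21, an inhibitor that halts the cycle after DNA damage. Its level was 5.10, 19.0 and 8.58 CPM in 1-month replicates 1, 2 and 3, then 5.42, 6.44 and 3.67 CPM at 12 months and 7.41, 6.81 and 11.2 CPM at 24 months. The 1-month libraries overlapped with both older groups, 1-month replicate 2 was the highest of all and 12-month replicate 3 the lowest. The log2 fold change was -1.07 (SE 0.564) at 12 months, with an adjusted p of 0.203 by edgeR's quasi-likelihood test with Benjamini-Hochberg adjustment, and -0.29 (SE 0.567) at 24 months, with an adjusted p of 0.752. Leaving out 1-month replicate 2 moved them to -0.42 (adjusted p 0.400) and 0.40 (adjusted p 0.520). The group means ran from 12 to 24 to 1 month, and the 24-month libraries lay just above the 12-month ones, without passing the test.

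The reads of CDKN1A were divided between a RefSeq transcript and a newly assembled one in a way that changed from library to library. The new transcript held 0.0255%, 0% and 18.2% of the gene's counts at 1 month, 55.9%, 0% and 45.1% at 12 months, and 100%, 42.9% and 0% at 24 months. Its share thus ranged from 0% to 18.2% at 1 month, 0% to 55.9% at 12 months and 0% to 100% at 24 months. For this reason only the sum of both transcripts is compared between ages here.

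CDKN1B encodes p27, an inhibitor that holds resting cells out of the cycle. It had 45.6, 59.7 and 42.0 CPM at 1 month, 32.6, 37.3 and 34.3 CPM at 12 months and 39.4, 34.5 and 28.9 CPM at 24 months. Each 1-month library was above each older one, by a small margin over 24-month replicate 1. The log2 fold change of -0.47 (95% interval -1.09 to 0.15) at 12 months and of -0.43 (-1.23 to 0.37) at 24 months did not pass the test, with adjusted p of 0.225 and 0.422 by the edgeR test with Benjamini-Hochberg adjustment. The values without 1-month replicate 2 were -0.35 (adjusted p 0.0703) and -0.25 (adjusted p 0.566). CDKN1B was past the test at both ages with total counts only (adjusted p 0.0343 and 0.0360), a scaling that lowers the median log2 fold change of all genes to -0.48 and -0.68.

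The INK4 genes moved in opposite directions with age. CDKN2B, encoding p15, which TGF-beta is known to induce, had 0.344, 0.430 and 0.483 CPM in group A, from only 5.30, 8.09 and 7.46 expected counts. It had 1.84, 3.13 and 1.45 CPM at 12 months and 3.31, 3.32 and 1.58 CPM at 24 months, from 26.15 to 66.6 expected counts. Each older library was above each 1-month library, and the 12- and 24-month libraries overlapped. The gene rose 5.38-fold at 12 months (log2 2.43, SE 0.538, adjusted p 0.0270, edgeR with Benjamini-Hochberg adjustment) and 7.22-fold at 24 months (log2 2.85, SE 0.655, adjusted p 0.0223), in 3 of 3 libraries each time.

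With 1-month replicate 2 left out the log2 fold changes of CDKN2B were 2.42 and 2.90, with edgeR adjusted p of 0.0215 and 0.0226. The remaining 1-month replicates 1 and 3 still held 4549 and 2340 CPM of the thymocyte list, against 20.0 to 43.7 CPM later. Their acinar sums of 39006 and 25205 CPM were also below those of the older libraries. The part of tissue make-up in the rise was not tested. Leaving out 1-month replicate 1 or 3 ended the call (adjusted p 0.0796 and 0.0721 at 12 months, 0.0823 and 0.0723 at 24 months), as did leaving out any older library (0.0843 to 0.113 at 12 months and 0.0578 to 0.0984 at 24 months). In these fits the log2 fold change stayed at 2.06 to 2.65 at 12 months and 2.66 to 3.14 at 24 months. With total counts only it was 1.96 at 12 months, under the threshold for a call, and the gene's 1 transcript did not pass when tested among all transcripts (adjusted p 0.141 and 0.137).

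CDKN2C, encoding p18, had 26.0, 48.7 and 17.5 CPM in 1-month replicates 1, 2 and 3. It had 4.24, 5.01 and 2.68 CPM at 12 months and 3.25, 1.92 and 2.64 CPM at 24 months. The lowest 1-month library was above the highest older one, and the 12- and 24-month libraries overlapped. The gene fell 7.65-fold at 12 months (log2 -2.94, SE 0.508, adjusted p 0.0143, edgeR with Benjamini-Hochberg adjustment) and 11.2-fold at 24 months (log2 -3.48, SE 0.540, adjusted p 0.00715), in 3 of 3 libraries each time. The log2 fold changes without 1-month replicate 2 were -2.46 and -2.96, with edgeR adjusted p of 0.00263 and 0.00146. The call was lost at 12 months without any one 12-month library (adjusted p 0.0715 to 0.0789, log2 -3.12 to -2.71) and at 24 months without 24-month replicate 3 (0.0544, log2 -3.49).

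The counts of CDKN2C came from 2 transcripts. The transcript XM_005678441.3 had 21.8, 45.5 and 15.9 CPM at 1 month, 1.09, 2.66 and 2.39 CPM at 12 months, and 1.99, 1.34 and 1.09 CPM at 24 months. The transcript XM_018044031.1 had 4.19, 3.28 and 1.65 CPM at 1 month, 3.15, 2.36 and 0.285 CPM at 12 months, and 1.26, 0.589 and 1.54 CPM at 24 months. The first was higher in each 1-month library than in each older one, and the second was higher in each 1-month library than in each 24-month one and overlapped between 1 and 12 months. Tested as transcripts, with Benjamini-Hochberg adjustment over all transcripts in edgeR, the first had log2 fold changes of -3.73 (adjusted p 0.0413) and -4.17 (adjusted p 0.0432) and the second of -0.61 (0.756) and -1.36 (0.433). The difference between the transcripts was not tested.

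RB1, the pocket protein that holds E2F factors, had 70.8, 91.9 and 57.0 CPM at 1 month, 38.9, 41.8 and 43.8 CPM at 12 months and 35.6, 30.7 and 36.4 CPM at 24 months. The 3 ages did not overlap, and the levels ran in the order 1, 12 and 24 months. The differences did not pass the edgeR test with Benjamini-Hochberg adjustment: the log2 fold change was -0.79 (SE 0.283, adjusted p 0.0921) at 12 months, -1.01 (SE 0.357, adjusted p 0.0855) at 24 months and -0.23 (SE 0.213, adjusted p 0.563) between the older ages. Without 1-month replicate 2 the change at 12 months was -0.63 and past the test (adjusted p 0.0140), and that at 24 months was -0.80 and not (adjusted p 0.0715). With all libraries RB1 was past the test at 12 and 24 months with DESeq2's Wald test (adjusted p 0.0335 and 0.0427), all 9 libraries in one fit (0.0423 and 0.0122) and total counts only (0.0170 and 0.0105), and at 24 months with library sizes without the 100 most abundant genes (0.0496).

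Among the D cyclins, CCND1 was the one with higher values at the older ages. It had 93.3, 13.4 and 79.5 CPM at 1 month, 181, 124 and 178 CPM at 12 months and 133, 148 and 105 CPM at 24 months. No 1-month library reached the older ones, replicate 2 was far below replicates 1 and 3, and the 12- and 24-month libraries overlapped. The log2 fold change was 1.45 (SE 0.641) at 12 months and 1.18 (SE 0.630) at 24 months, with adjusted p of 0.146 and 0.222 by edgeR with Benjamini-Hochberg adjustment. Leaving out 1-month replicate 2 made it 0.89 (SE 0.205) and past the test at 12 months (adjusted p 0.0160), and 0.68 (SE 0.321) and not past it at 24 months (adjusted p 0.141). CCND1 was thus lowest in the library with the least acinar RNA.

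CCND2 had 111, 90.6 and 164 CPM at 1 month, 105, 77.7 and 99.1 CPM at 12 months and 61.4, 79.1 and 85.3 CPM at 24 months. The 12-month libraries overlapped with those of both other ages, and the 24-month libraries were all below those of 1 month. The log2 fold changes were -0.32 (95% interval -1.03 to 0.38) and -0.58 (-1.45 to 0.29), with adjusted p of 0.445 and 0.318 in the edgeR test with Benjamini-Hochberg adjustment. Leaving out 1-month replicate 2 made them -0.56 (adjusted p 0.0847) and -0.77 (adjusted p 0.105).

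CCND3, the D cyclin known for its part in the expansion of immature T cells, had 196, 1073 and 132 CPM in 1-month replicates 1, 2 and 3. It had 31.2, 24.6 and 21.5 CPM at 12 months and 25.5, 49.9 and 56.1 CPM at 24 months. Each 1-month library was above each older one, with replicate 2 far above the rest, and the older ages overlapped. The gene fell 18.3-fold at 12 months (log2 -4.19, SE 0.909, adjusted p 0.0255, edgeR with Benjamini-Hochberg adjustment) and 10.2-fold at 24 months (log2 -3.35, SE 0.882, adjusted p 0.0348), in 3 of 3 libraries each time. Without 1-month replicate 2 the fall was 6.41-fold (log2 -2.68, adjusted p 0.000756) and 3.50-fold (log2 -1.81, adjusted p 0.0105).

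The call of CCND3 at 24 months was lost without 1-month replicate 2, as the log2 fold change of -1.81 is under the threshold for a call. CCND3 was no longer past the test without any one of the older libraries, at adjusted p of 0.0974 to 0.114 at 12 months (log2 -4.33 to -4.07) and 0.113 to 0.123 at 24 months (log2 -3.55 to -3.05) in edgeR. Of its 2 transcripts, XM_005696305.3 held 38.1%, 53.3% and 55.0% of the gene's counts at 1 month, 56.9%, 64.1% and 54.9% at 12 months, and 48.1%, 70.5% and 58.4% at 24 months. These shares overlapped between all ages. Tested as transcripts, neither passed, at adjusted p of 0.0786 and 0.0559 at 12 months and 0.143 and 0.0782 at 24 months with edgeR.

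**Figure D3:**
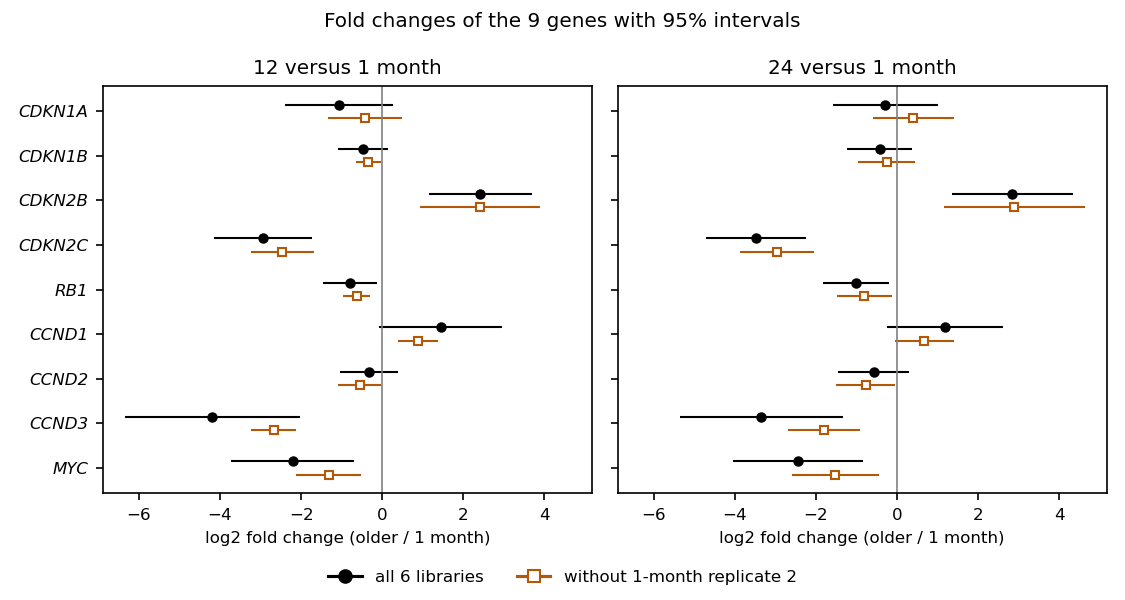
Log2 fold change of each of the 9 genes (horizontal axis, older age over 1 month) at 12 months (left) and 24 months (right), as points with 95% intervals from the edgeR fit with all 6 libraries (filled circles) and without 1-month replicate 2 (open squares). The estimate of CCND3 at 12 months moves from -4.19 to -2.68 without that library, and that of CDKN2B from 2.43 to 2.42.

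The make-up of the D cyclins was also compared within each library, as the share of their summed counts in each gene, which no scaling between libraries moves. CCND3 held 49.1%, 91.2% and 35.2% at 1 month, 9.82%, 10.9% and 7.20% at 12 months, and 11.6%, 18.0% and 22.8% at 24 months. CCND1 held 23.3%, 1.14% and 21.1% at 1 month, 57.1%, 54.7% and 59.6% at 12 months, and 60.6%, 53.4% and 42.6% at 24 months. CCND3 was highest at 1 month and lowest at 12 months, with no overlap between any ages, and CCND1 was lower at 1 month than at either older age. CCND2 held 7.70% to 43.6% at 1 month and 27.9% to 34.6% in the older libraries, within the range of group A.

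A two-sided exact permutation test gave p = 0.1 for the share of CCND3 in all 3 pairs of ages and for that of CCND1 at 12 and 24 months against 1 month, the smallest p that 3 against 3 libraries allow, so no such difference could pass 0.05. For CCND2 the exact p was 0.7 at both older ages. Shares reflect transcript length as well as abundance and are read between libraries only.

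**Figure D4:**
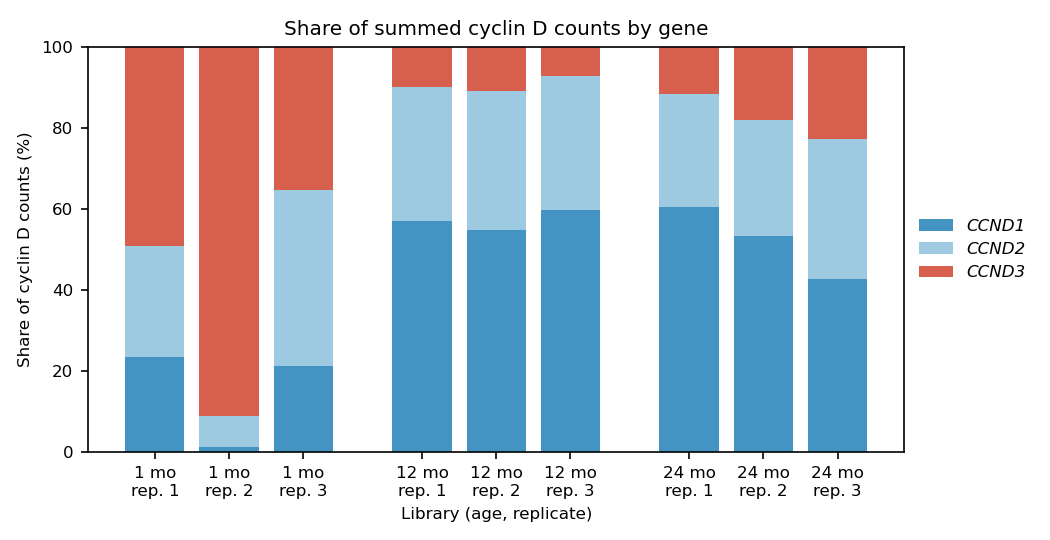
Share of the summed expected counts of CCND1, CCND2 and CCND3 held by each gene (vertical axis, percent) in the 9 libraries, ordered by age and replicate. CCND3 takes 35.2% to 91.2% at 1 month and 7.20% to 22.8% in the older libraries.

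MYC had 25.1, 105 and 33.2 CPM in 1-month replicates 1, 2 and 3, 13.7, 14.5 and 7.12 CPM at 12 months, and 5.003, 7.76 and 15.7 CPM at 24 months. Replicate 2 of group A was far above the rest, each 1-month library was above each older one, and the older ages overlapped. The mean of group A was 54.3 CPM with replicate 2 and 29.2 CPM without it. Without that library the fold was 2.50 at 12 months (log2 -1.32, SE 0.326, adjusted p 0.0201, edgeR with Benjamini-Hochberg adjustment) and 2.88 at 24 months (log2 -1.52, SE 0.475, adjusted p 0.0399), against 4.61 and 5.43 with all libraries, and MYC was not called at either age without that library.

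Whether MYC passed the test depended on the setting at both ages. With all libraries the edgeR adjusted p was 0.0555 at 12 months and 0.0459 at 24 months. The latter was 0.0513 when gene symbols were matched with their case and unnamed transcripts were kept, which was the way the table was first summed, before symbols were set in capitals and those transcripts left out. It was 0.0890 to 0.159 without any one 24-month library (log2 -3.01 to -2.11), and 0.00229 to 0.0513 over the settings that keep all libraries and sum transcripts per gene. At 12 months the adjusted p was 0.00349 to 0.0819 over those settings and under 0.05 in 6 of 10. The transcript XM_018058563.1 held 76.3% to 100% of MYC counts in every library and, tested by itself, had an adjusted p of 0.0970 at 12 months and 0.122 at 24 months.

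Between 12 and 24 months none of the 9 genes was past the test, as was the case for the whole table: 0 of 14077 genes with edgeR's quasi-likelihood test, 0% lower and 0% higher, with 1555 at an unadjusted p under 0.05, and 21 genes with either DESeq2's Wald test or edgeR's exact test. Adjusted p of the 9 genes ranged from 0.426 to 0.950. The log2 fold change was 0.82 (95% interval 0.10 to 1.53) for CCND3 and 0.76 (-0.01 to 1.53) for CDKN1A, and from -0.56 (CDKN2C) to 0.41 (CDKN2B) for the other genes, with MYC at -0.26 and, without 24-month replicate 3, at -0.88. Without 24-month replicate 1, CCND3 rose by 1.09 on the log2 scale and was past the test (adjusted p 0.00936), in a setting where 4657 genes of the table were past it.

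Other genes of the G1/S pathway were taken from a list of 34, of which 33 were tested against group A. At 12 months 13 were past the test, all lower, where 11.7% of all genes tested were past it and lower, with a median log2 fold change of -0.92 over the list and -0.02 over all genes tested. At 24 months 13 were past it, again all lower, against 10.4% of all genes, with medians of -1.03 and -0.01. When 1-month replicate 2 was left out, 16 and 14 were past it, all lower, with medians of -1.08 and -0.84, while 22.2% and 14.2% of all genes tested were past it and lower and 21.5% and 14.1% higher. Between the older ages 0 of 30 were past the edgeR test, where the whole table gave 0 as well.

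CDK6, a kinase partner of D cyclins, had 318, 379 and 234 CPM at 1 month, 41.4, 24.5 and 31.2 CPM at 12 months and 31.8, 17.6 and 17.9 CPM at 24 months. It fell by 3.23 and 3.71 on the log2 scale at 12 and 24 months (adjusted p 0.00701 and 0.00392, edgeR with Benjamini-Hochberg adjustment), and by 3.10 and 3.53 without 1-month replicate 2 (0.000631 and 0.000423). CDK4, the other such kinase, had 36.1, 84.0 and 34.3 CPM at 1 month, 25.9, 29.3 and 30.5 CPM at 12 months and 29.4, 43.7 and 48.0 CPM at 24 months, and its log2 fold changes of -0.83 and -0.26 did not pass (adjusted p 0.191 and 0.732), nor did those of -0.31 and 0.30 without that library (0.109 and 0.538). CDK6 was clear of the older libraries in each 1-month library, including replicates 1 and 3, and CDK4 overlapped at 24 months.

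Among pocket proteins and E2F factors, 7 of 12 were lower at each older age: E2F1, E2F2, E2F3, E2F7, E2F8, RBL1 and TFDP2. Leaving out 1-month replicate 2 gave 9 of 12 at 12 months, with E2F4 and TFDP1 added, and the same 7 at 24 months, and the shares of all genes given above for the pathway apply here too. E2F2 had 54.7, 312 and 40.2 CPM at 1 month and 0.0602 to 1.23 CPM in the older libraries. RBL1, a relative of RB1, had 44.6, 43.5 and 38.2 CPM at 1 month, 14.2, 23.3 and 17.1 CPM at 12 months and 15.7, 13.1 and 9.44 CPM at 24 months. The 1-month libraries of RBL1 lay close together, replicate 2 included, while that of E2F2 in replicate 2 was far above the others. Of the 4 remaining inhibitors, CDKN2D was lower at both ages with and without 1-month replicate 2 and had 8.08, 31.3 and 8.32 CPM at 1 month and 1.13 to 2.16 CPM later, and CDKN2A had at most 0.408 CPM in any library and was not tested. CDKN1C did not pass (adjusted p 0.147 and 0.588, and 0.0598 and 0.439 without that library), and CDKN3, with log2 fold changes of -3.01 and -5.72 (-3.27 and -5.93 without that library), was past the test at 24 months (0.00791, and 0.00206) and not at 12 months (0.156, and 0.106), which does not show that the ages differ. SKP2, which marks CDKN1B for degradation, had 19.8, 24.4 and 17.3 CPM at 1 month and 1.58 to 4.24 CPM later, past the test at both ages with and without that library.

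In the MYC network 12 of 12 listed genes were tested, and 3 were lower at each older age (MYCN, MYCL and MXD3) and 0 higher, where 11.7% of all genes tested were lower and 6.52% higher at 12 months and 10.4% and 7.1% at 24 months. MYCN had 7.28, 20.3 and 4.91 CPM at 1 month, 0.771, 0.513 and 0.771 CPM at 12 months and 0.361, 0.408 and 0.475 CPM at 24 months. MAX had 68.0 to 131 CPM at 1 month and 101 to 126 CPM in the older libraries, within the range of group A. Without 1-month replicate 2, 5 of the 12 were lower and 4 higher (MAX, MLX, MLXIP and MXD4) at 12 months. At 24 months 3 were lower and 2 higher (MLX and MXD4) without that library. Of all genes tested in these fits, 22.2% were lower and 21.5% higher at 12 months, and 14.2% and 14.1% at 24 months. In total 6532 and 4273 genes of the table were past the test in them, against 2661 and 2575 with all libraries. Of 20 listed MYC target genes 19 were tested, and NOP56 and PPAT were lower at each older age, with list medians of -0.71 and -0.66 against -0.02 and -0.01 over all genes tested. In the same fits without replicate 2, 4 were lower and 1 higher (SRM) at 12 months. At 24 months 2 were lower and 1 higher (SRM). The shares of all genes given for these fits apply here too. List medians were -0.27 and -0.38 in them, against -0.01 and 0.05 over all genes tested.

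Of 10 genes of TGF-beta signalling and FOXO factors, TGFB1 was lower at 12 months (log2 -2.36, edgeR adjusted p 0.0386), where 11.7% of all genes tested were, and 0 were past the test at 24 months, where 2575 genes of the table were past it (10.4% lower and 7.1% higher). SMAD7 had 9.85, 5.94 and 9.80 CPM at 1 month and 13.5 to 17.9 CPM in the older libraries, with log2 fold changes of 0.98 and 1.05 that did not pass (adjusted p 0.0684 and 0.0981). With 1-month replicate 2 left out, 2 of the 10 were lower (TGFB1 and TGFBR1) and 1 higher (SMAD7) at 12 months, where 22.2% and 21.5% of all genes tested were, and 0 were past the test at 24 months, where 14.2% and 14.1% were.

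Genes of DNA replication and mitosis, as a measure of dividing cells, summed over 25 genes to 2198, 5791 and 1839 CPM at 1 month and to 195 to 254 CPM in the older libraries. At 12 months 25 of 25 were lower in the edgeR test, against 11.7% of all genes tested, and at 24 months 24 of 25, against 10.4%. With 1-month replicate 2 left out all 25 were lower at both ages, against 22.2% and 14.2%.

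The genes most like each of the 9 were found by Pearson's r of log2(CPM + 1) over the 9 libraries, among 14779 genes. The values describe these libraries, which share ages, tissue make-up and depth. For CDKN2C the first 3 were EIF4E3, FANCI and STMN1 (r of 0.995, 0.995 and 0.994), and for CCND3 they were FMNL3, LOC102176524 and MCM2 (0.997, 0.996 and 0.995). For CCND1 they were INHBB, MYO5C and ABHD17C (0.994, 0.991 and 0.991), and for CDKN2B TACC1, LOC102172072 and SLC9B1 (0.995, 0.976 and 0.976).

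FMNL3, a formin of the actin cytoskeleton, had 78.6, 458 and 59.0 CPM at 1 month and 11.1 to 23.0 CPM later, with the same order of the 9 libraries as CCND3 (Spearman's rho of 1). INHBB, an inhibin and activin subunit, had 7.89, 0.322 and 5.71 CPM at 1 month and 9.91 to 15.9 CPM later, so that like CCND1 it was lowest in 1-month replicate 2. For RB1 the first 3 were KIAA0753, CCDC15 and PPM1D (0.988, 0.985 and 0.985), for MYC SCARB1, LOC102183956 and LOC102174197 (0.980, 0.979 and 0.976), and for CDKN1B MAPKAP1, POC5 and RGS6 (0.984, 0.979 and 0.976). For CDKN1A they were CASP9, IRAK2 and TTC7A (0.975, 0.972 and 0.972), and for CCND2 LOC102175889, PTGIR and IL6R (0.948, 0.935 and 0.928).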

How the data were processed

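The authors removed ribosomal reads with Bowtie2 2.2.8, mapped what was left to a goat genome using TopHat2 2.1.1, assembled transcripts with Cufflinks and deposited expected counts per transcript and library, made with RSEM and not normalized. The genome build was not given in the sources used here. Libraries are named by age and replicate number as in the table, since the study numbers those of groups B and C otherwise.

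RefSeq transcripts were named from the annotation of the goat genome (42652 of 42686 matched), and 10053 new ones by the symbol in the table. Symbols were set in capitals, and 436 transcripts that name no gene, with 0.251% to 6.01% of the counts of a library, were left out. The first version kept both case and unnamed transcripts, was replaced after its results had been seen, and is kept as an added alternative. Counts were summed per gene and rounded to whole numbers for testing.

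Each pair of ages was fitted on its 6 libraries with edgeR 4.0.16 in R 4.3.3 (filterByExpr, TMM, glmQLFit, glmQLFTest), with Benjamini-Hochberg adjustment over all genes tested. The FPKM part of the study's rule was not applied, because FPKM were not used here. CPM use TMM library sizes over the 9 libraries. For cyclin D shares an exact permutation test, two-sided, was used (scipy 1.17.1). Counts are of reads, not molecules, so a floor of 3 counts covers counting error only. The p-values rest on the spread between libraries of 3 goats per age. At 1 month that spread includes replicate 2, whose marker RNA goes against its label. The SE of the log2 fold change of CCND3 at 12 months was 0.909 with that library and 0.232 without it.

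Named are the 9 genes, their transcripts, and some listed genes of the G1/S pathway and MYC network. The latter were past the test or were singled out for their role. CCNA2, CDK2, CKS1B, CCNE2, MNT and ZBTB17 were past the test in some fits and are not described. Also named are the genes with the highest mean CPM and the defining genes of marker lists. For each of the 9 genes, the 3 with the highest Pearson's r are named as well. These were taken among genes with at least 10 counts in at least 3 libraries. Genes of the TGF-beta and MYC target lists, SRM among them, and FMNL3 and INHBB as examples, were singled out after their values were seen. The members and lists were chosen with earlier results of these data known. Alternatives were other scalings, DESeq2 1.42.0, edgeR's exact test, no filter, all 9 libraries in one fit, a replicate block, single transcripts, and leaving out each library. Chosen after seeing the data were the naming alternative and the pathway and marker lists and their genes without 1-month replicate 2.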

Additional observations from a re-analysis of the deposited data

How the results depend on the processing

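Counts are given as genes of the table, then of the 9 genes. At 12 versus 1 month, 2661 genes were past the test and 1678 called, with 3 of the 9 in each. Of 14622 genes tested, 4647 were past the test with DESeq2's Wald test, with 5 of the 9. With edgeR's exact test 4092 were past it, with 4 of the 9, and with total counts only 3259, with 6 of the 9. All 9 libraries in one fit gave 3539 of 14865 genes, with 5 of the 9. Where each transcript was tested by itself, 1 of the 9 was past the test, and the number over all transcripts was not counted. Leaving out a library gave 0 to 6532 genes past the test and 0 to 6 of the 9, and 0 to 1834 genes called and 0 to 3 of the 9. At 24 versus 1 month, 2575 genes were past the test and 1946 called, with 4 of the 9 in each. Past the test were 3991 of 14696 genes with the Wald test and 4325 of 14865 with all 9 libraries in one fit, each with 5 of the 9. Single transcripts gave 1 of the 9, again without a count over all transcripts. Leaving out a library gave 305 to 4273 genes past the test and 0 to 4 of the 9, and called 305 to 2117 genes and 0 to 3 of the 9. Fits without a library have fewer samples, and the reason for the changes was not tested.

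At 24 versus 12 months, 0 genes were past the test. There were 21 (10 called) with the Wald test, 21 (13 called) with the exact test and 1 (1 called) with no filter. Without a library there were 0 to 4657 past the test, 0 to 155 called and 0 to 1 of the 9 past the test. The log2 fold change of CDKN1B, 0.03, was reversed to -0.00387 with DESeq2 size factors, to -0.0272 with upper-quartile factors, -0.18 with total counts only, -0.0582 without the 100 most abundant genes, -0.00393 with the Wald test and -0.0122 with all 9 libraries in one fit, and ranged from -0.0728 to 0.0939 without a library. MYC ranged from -0.88 to 0.0443 there, and CDKN1A at 24 versus 1 month from -0.64 to 0.40. Each of these stayed far from the threshold.

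With the replicate number as a replicate block, 927 genes were past the test and 895 called at 12 versus 1 month, with 1 of the 9 (CDKN2C) in each, and 8 were past it and 7 called at 24 versus 12 months. At 24 versus 1 month CDKN2B had an adjusted p of 0.0543. Each library came from a different goat, so the numbers pair no animals. Deviations of same-numbered libraries correlated from -0.189 to 0.344 and those of other pairs from -0.358 to 0.278. These values cannot show whether same-numbered libraries are linked in another way. With total counts only, the median log2 fold change of all genes was -0.48, -0.68 and -0.17 in the 3 comparisons, and RB1 and CDKN1B passed the test against group A. Without 1-month replicate 2 the difference in the share of cyclin D counts moved from -49.2 to -32.8 percentage points at 12 months and from -41.0 to -24.7 at 24 months for CCND3, and for CCND2 from 7.23 to -2.08 and from 4.04 to -5.27. By Spearman's rho in place of Pearson's r, 0 to 2 of the 3 genes most like each gene stayed among the first 3.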

Other observations

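Counts of marker genes stand against 11.7% of all genes tested lower and 6.52% higher at 12 months, and 10.4% and 7.1% at 24 months. Macrophage genes (7 of 8 found) were lower in 6 of 7 at 12 months and 5 of 7 at 24 months, and summed to 509, 602 and 1862 CPM in 1-month replicates 1, 2 and 3 and to 144 to 264 CPM later. B cell genes were lower in 4 of 7 and 4 of 8 tested, and neutrophil lineage genes in 4 of 7 and 5 of 7. Plasma cell genes (7 of 7 tested) were past the test in 0 at either age, and summed to 703, 126 and 1293 CPM at 1 month and to 2004 to 3954 CPM later. Of 8 fibroblast genes 1 was lower at 12 months and 3 at 24 months, and of 8 endothelial and 7 myoepithelial genes 0 were past the edgeR test at either age. Of skeletal muscle genes 0 and 1 of 6 were lower, of adipocyte genes 0 and 1 of 5, and 0 of the 6 listed erythroid genes were tested. Salivary acinar genes were higher in 2 and 3 of 10 and duct genes in 0 and 2 of 10. Leaving out 1-month replicate 2, where 22.2% of all genes were lower and 21.5% higher at 12 months and 14.2% and 14.1% at 24 months, gave 10 and 8 acinar and 7 and 8 duct genes higher, 7 and 6 of 7 macrophage genes, 8 and 5 of 8 B cell genes, 6 and 6 of 7 neutrophil lineage genes and 5 and 5 of 8 fibroblast genes lower, 4 and 2 of 7 plasma cell genes and 3 and 2 of 7 myoepithelial genes higher, 0 of 8 and 2 of 6 muscle and 1 and 5 of 6 adipocyte genes lower, and of endothelial genes 1 lower and 1 higher at 12 months and 1 higher at 24 months.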
